A study of Mus musculus with 2 samples.

Results

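Direct Wnt/β-catenin target genes were examined in PB and PB-TERRA 46C mESCs, 9 genes chosen by symbol of the 18888 genes in the table. They are Axin2 (gene ID 12006), Nkd1 (93960), Lgr5 (14160), Lef1 (16842), Tcf7 (21414), Sp5 (64406), Cdx1 (12590), Cdx2 (12591) and T (20997), and each symbol had 1 row. 46C is a mouse embryonic stem cell line. PB mESCs carried the empty PiggyBac vector, and PB-TERRA mESCs carried the same vector expressing polyadenylated TERRA, the noncoding RNA of telomeric repeats. Both were grown on gelatin in the usual mESC medium and harvested at the same range of passages. RNA of each condition was sequenced as 1 library, so no difference here has a replicate check and no p-value is given. Whether the cells of a condition were 1 clone or a pool is not given in the sources used here. The comparison bears on Wnt signalling because the study tested whether PB-TERRA mESCs self-renew without CHIR99021, an inhibitor of the β-catenin kinase GSK3. The paper kept mESCs in LIF/serum medium or in a serum-free medium that contains CHIR99021. It does not say which of these the sequenced cells were in, so whether CHIR99021 was present is not known from it.

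In the canonical Wnt pathway, a ligand binds Frizzled and LRP receptors and stops the destruction complex, which otherwise marks β-catenin for degradation. β-catenin then enters the nucleus and binds TCF/LEF proteins, which switch target genes from repression to activation. In mESCs, much of the pathway acts by relieving repression by TCF7L1, and activation of Axin2, Sp5, T and the Cdx genes is a common readout of β-catenin activity.

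Levels are FPKM, fragments per length of gene and depth of library, and can be compared between genes. A difference is given as the log2 of the level in PB-TERRA over that in PB after adding 0.1 FPKM to each, which shrinks the ratio of genes with low FPKM. Reads are estimates from FPKM and gene length, at 24620000 reads in PB and 24800000 in PB-TERRA. An exact binomial 95% interval of the ratio of reads accompanies each difference described for a named gene, except where only levels or reads are given. It covers counting error only, not the spread between cultures. A gene is called higher or lower below where this interval lay on 1 side of 0. The mESC markers Pou5f1, Sox2, Nanog, Zfp42, Dppa5a, Utf1, Esrrb and Tdgf1 were all abundant, from 127.58 FPKM (Esrrb in PB) upwards, as the label of the cells implies.

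Sequences in front of 4 members are shown because TCF/LEF proteins bind short motifs near many direct targets. The RefSeq promoter table (build GRCm38.p6, not the mm9 of the authors) held windows for 7 of the 9 members, and the 250 bases before the annotated start were searched on both strands for CTTTGAT and CTTTGAA, which differ in their last base only. Sp5 and T each had 1 match, written in capitals, and Axin2 and Cdx2, the 2 members with the highest log2 ratio among those with a window, had none. Each sequence runs 5′ to 3′ on the gene's strand.
Sp5 (chr2:70474673-70474922, + strand): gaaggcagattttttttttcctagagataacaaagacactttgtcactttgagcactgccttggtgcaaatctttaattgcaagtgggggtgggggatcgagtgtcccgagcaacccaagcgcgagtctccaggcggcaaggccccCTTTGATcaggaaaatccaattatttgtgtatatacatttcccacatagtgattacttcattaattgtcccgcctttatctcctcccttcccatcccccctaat
T (chr17:8434173-8434422, + strand): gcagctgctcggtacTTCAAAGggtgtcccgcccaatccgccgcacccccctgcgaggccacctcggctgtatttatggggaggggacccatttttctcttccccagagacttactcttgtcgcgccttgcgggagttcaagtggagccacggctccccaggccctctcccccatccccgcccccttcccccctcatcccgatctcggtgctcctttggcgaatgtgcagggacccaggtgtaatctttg
Axin2 (chr11:108920099-108920348, + strand): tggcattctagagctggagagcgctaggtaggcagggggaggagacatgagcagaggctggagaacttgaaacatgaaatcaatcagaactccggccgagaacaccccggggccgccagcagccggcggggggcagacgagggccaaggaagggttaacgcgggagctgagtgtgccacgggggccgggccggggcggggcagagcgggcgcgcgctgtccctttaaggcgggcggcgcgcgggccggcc
Cdx2 (chr5:147307250-147307499, - strand): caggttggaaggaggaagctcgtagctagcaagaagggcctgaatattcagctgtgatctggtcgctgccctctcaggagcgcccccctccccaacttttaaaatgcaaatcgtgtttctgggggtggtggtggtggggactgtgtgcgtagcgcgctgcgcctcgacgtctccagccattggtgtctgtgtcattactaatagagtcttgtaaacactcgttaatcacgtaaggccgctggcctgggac

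The match of Sp5 was CTTTGAT on the gene's strand, at positions -104 to -98 from the start. In T the match was CTTTGAA on the opposite strand, printed as TTCAAAG, at positions -235 to -229. Among all 32851 windows of this length, 3.21% held CTTTGAT, 4.46% held CTTTGAA and 7.48% held at least 1 of them. Of the 11 windows of the members, 2 held a match. Lef1, Nkd1 and Tcf7 had windows with no match. A match is a stretch of letters in this window and no measurement of binding.

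The members differed widely in level. Tcf7, which encodes the TCF/LEF factor TCF1, was the most abundant at 29.61 FPKM in PB, higher than 84.3% of all genes in that library. Sp5, a zinc finger repressor at the end of the pathway, followed with 14.57 FPKM and T (brachyury), a T-box factor of the primitive streak, with 9.08 FPKM. Axin2 had 5.75, Lef1 5.48 and Cdx1 4.29 FPKM in PB, and Cdx2 1.19 FPKM. Nkd1 (0.82 FPKM) and Lgr5 (0.16 FPKM) lay under the filter of 1 FPKM in both libraries. The remaining 7 members passed it in PB and in PB-TERRA alike. In PB the exact Poisson intervals of neighbours overlapped for Axin2 (5.29 to 6.23 FPKM) and Lef1 (4.98 to 6.01 FPKM). Those of Cdx2 (0.91 to 1.53 FPKM) and Nkd1 (0.65 to 1.01 FPKM) overlapped only slightly. An overlap of separate intervals does not decide the order of 2 genes, which was not tested. In order of level Cdx1 ranked 6 in PB and 5 in PB-TERRA, ahead of Lef1 there. With 7.04 FPKM (6.25 to 7.91) it stood next to Axin2, with 7.25 FPKM (6.74 to 7.79), and these intervals overlapped, as did those of Axin2 and T.

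**Figure D1:**
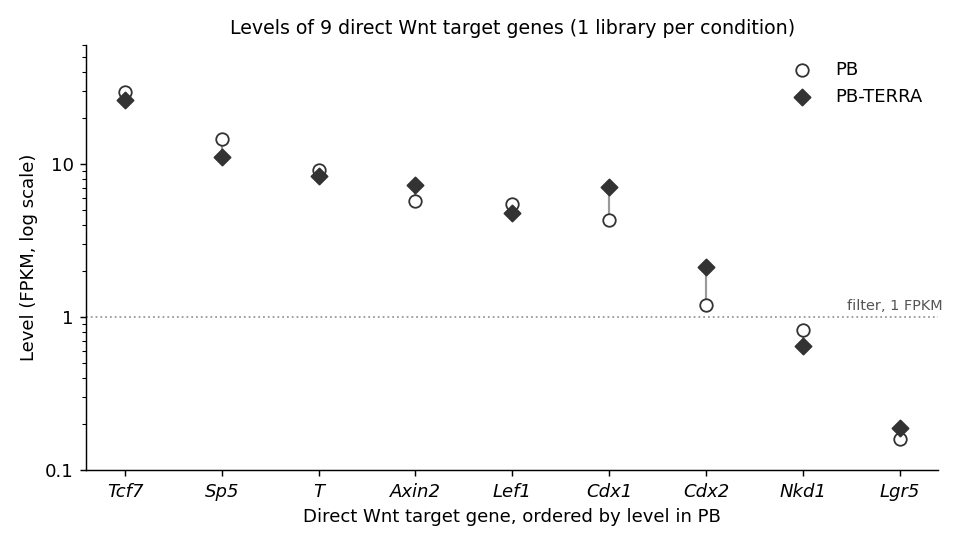
Levels of the 9 direct Wnt target genes in FPKM on a log axis, ordered by their level in PB, with an open circle for the PB library and a filled diamond for PB-TERRA. Cdx1 and Cdx2 show the widest gaps between the libraries, with the PB-TERRA value on top, and Nkd1 and Lgr5 lie under the dotted line at 1 FPKM.

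The members did not differ in 1 direction. Cdx2, Cdx1 and Axin2 were higher in PB-TERRA mESCs, and Sp5, Lef1 and Tcf7 were lower. In bulk RNA, more cells of a type cannot be told apart from more RNA per cell. For T, and for Nkd1 and Lgr5 under the filter, the interval included 0. Over all 9 members 4 log2 ratios were above 0 and 5 below, and their median was -0.12. The median of the 12263 genes past the filter was -0.0044. No member reached an absolute log2 ratio of 1 (0 of 9), a size that 112 genes past the filter had, 0.913% of them. Of the 7 members past the filter, 3 had an interval above 0, against 18.1% of all genes past it, and 3 an interval below 0, against 17.5%. These 7 genes had between 167 and 3844 reads in both libraries together. Among the 8122 genes in that range of reads, 13.9% had an interval above 0 and 16.2% one below 0. Both shares are of 7 genes, and no test of the list was made.

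**Figure D2:**
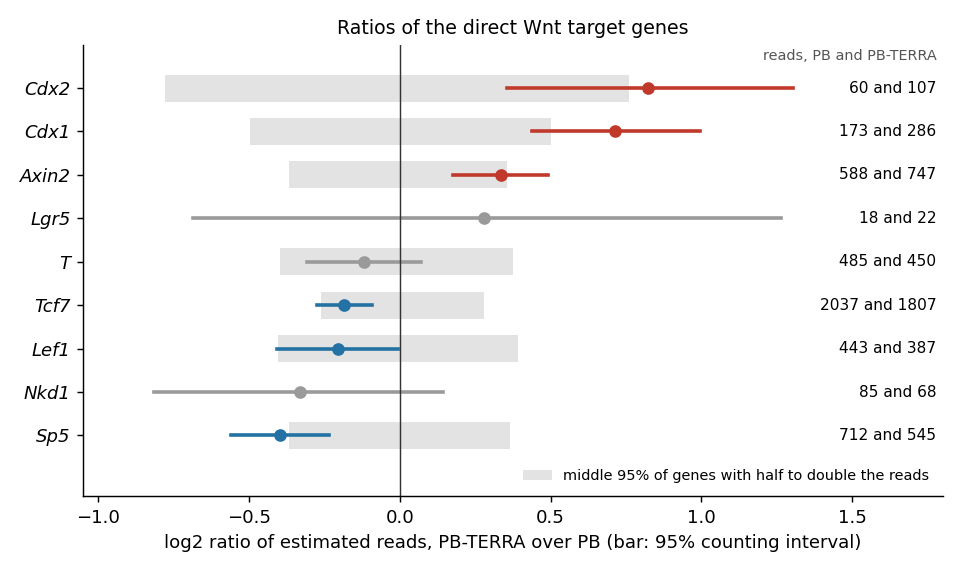
The log2 ratio of estimated reads, PB-TERRA over PB, of each member (point) with its 95% counting interval (bar), red above 0, blue below 0 and grey where it includes 0, and the reads of both libraries at the right. Light bars give the middle 95% of genes with 0.5 to 2 times the reads of that member (not drawn for Lgr5 and Nkd1, under the filter), and the points of Cdx2, Cdx1 and Sp5 lie outside them.

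Axin2 and Nkd1 are negative feedback genes, the first a scaffold of the destruction complex and the second an inhibitor of Dishevelled. Axin2, a widely used reporter of β-catenin activity, had 5.75 FPKM in PB and 7.25 FPKM in PB-TERRA mESCs. Its reads were 588 and 747, a log2 ratio of the reads of 0.33 (95% interval 0.18 to 0.49). With the same ratio on the FPKM scale (0.33), Axin2 stood among the upper 5.03% of genes past the filter, and 2.77% of the 4470 genes with 0.5 to 2 times its reads had a ratio of reads at least as high. Nkd1 had 0.82 and 0.65 FPKM, from 85 and 68 reads. Its log2 ratio of the reads was -0.33 with an interval from -0.81 to 0.14, so a difference was not detectable at this depth. 

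Lgr5, a receptor for R-spondins that marks intestinal stem cells, was barely detected, at 0.16 FPKM (18 reads) in PB and 0.19 FPKM (22 reads) in PB-TERRA. The log2 ratio of its reads, 0.28, had an interval from -0.69 to 1.26, which holds changes of more than 1 on the log2 scale. The paralogs LGR4 and LGR6 bind the same ligands. Lgr4 was far more abundant, with 31.51 FPKM in PB and 28.56 FPKM in PB-TERRA mESCs (log2 ratio -0.14, interval of the reads -0.21 to -0.08). Lgr6 had 0.45 and 0.59 FPKM.

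Lef1 and Tcf7 encode TCF/LEF factors that are themselves activated by β-catenin, and both were slightly lower in PB-TERRA mESCs. Tcf7 had 29.61 FPKM in PB and 26.08 FPKM in PB-TERRA. Its 2037 and 1807 reads gave a log2 ratio of the reads of -0.18 (95% interval -0.28 to -0.09), the narrowest interval of the 9 members. Lef1 had 5.48 and 4.75 FPKM. The log2 ratio of its 443 and 387 reads was -0.21, with an interval from -0.41 to -0.0055 that barely left out 0 and, at the 99% level, included it (-0.47 to 0.06). Both ratios are within the range common among genes of like depth, since 6.69% of genes with 0.5 to 2 times the reads of Tcf7, and 14.6% for Lef1, had a ratio at least as low. The other TCF/LEF genes are Tcf7l1, the main repressor of the family in mESCs, and Tcf7l2. Tcf7l1 had 65.29 and 60.67 FPKM, a log2 ratio of -0.11 (interval of the reads -0.17 to -0.04), and Tcf7l2 4.22 and 4.37 FPKM. Of the summed FPKM of the 4 genes, Tcf7l1 made up 62.4% in PB and 63.3% in PB-TERRA. Long isoforms of Lef1 and Tcf7 and shorter ones that lack the β-catenin binding part cannot be told apart in values per gene.

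Sp5, Cdx1, Cdx2 and T encode transcription factors downstream of β-catenin, and they split. Cdx1 and Cdx2 are caudal homeobox factors of the posterior body axis and the intestine, and CDX2 also specifies trophectoderm. Cdx1 had 4.29 FPKM in PB and 7.04 FPKM in PB-TERRA mESCs, 1.64-fold, from 173 and 286 reads. The log2 ratio of its reads was 0.71 (95% interval 0.44 to 0.996), and only 0.810% of the 3088 genes with 0.5 to 2 times its reads had a ratio at least as high. Cdx2 had 1.19 and 2.13 FPKM, 1.79-fold, the largest ratio of the 9 members. Its reads were few, 60 and 107, which gave a log2 ratio of 0.82 with a wide interval from 0.35 to 1.31. At that depth, 1.89% of 1642 genes had a ratio at least as high. The interval of Cdx1 lay inside that of Cdx2, so the sizes of their differences could not be ranked.

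Sp5 was the member with the lowest ratio. It had 14.57 FPKM in PB and 11.08 FPKM in PB-TERRA, 0.760-fold, from 712 and 545 reads. The log2 ratio of the reads was -0.40 (95% interval -0.56 to -0.23), and 1.92% of the 4436 genes with 0.5 to 2 times its reads had a ratio at least as low. T had 9.08 and 8.37 FPKM from 485 and 450 reads. For T the log2 ratio of the reads, -0.12, had an interval from -0.31 to 0.07 and included 0. Sp5 and Cdx1, both used as readouts of the same pathway, thus differed in sign, and their intervals lay far apart.

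**Figure D3:**
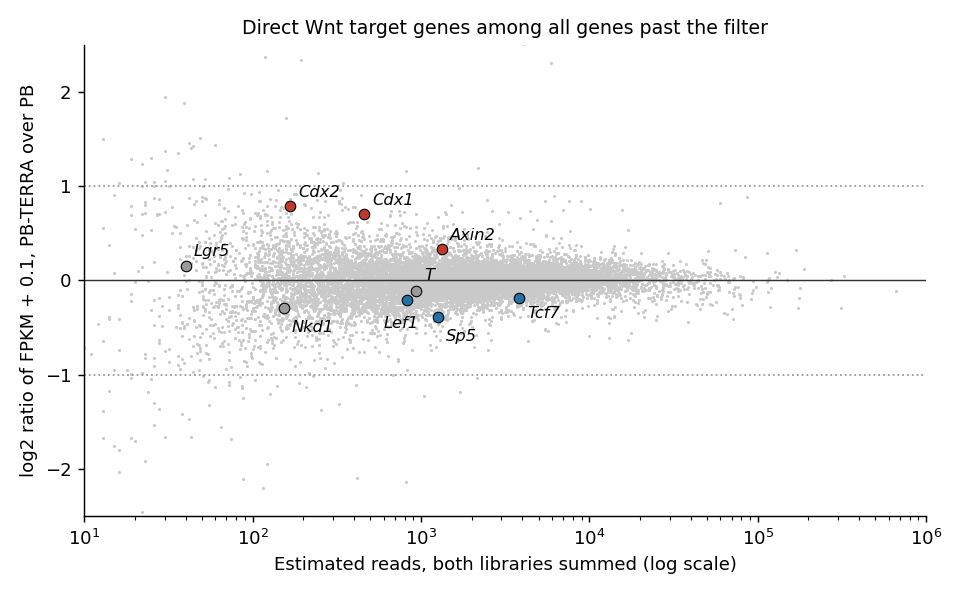
Log2 ratio of FPKM + 0.1 (PB-TERRA over PB) against the estimated reads of both libraries (log axis) for the genes past the filter (grey), with the 9 members in colour, red for an interval above 0, blue for below and grey where it includes 0. Cdx1 and Cdx2 lie at the upper edge of the cloud and under the dotted line at 1, Nkd1 and Lgr5 are drawn although under the filter, and 32 genes lie beyond the axes.

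In the table's own GO annotation, a process term with Wnt in its name was listed for 5 of the 9, namely Axin2, Nkd1, Lef1, Tcf7 and T. Of 24 genes annotated to negative regulation of canonical Wnt signalling, 22 passed the filter, and their median log2 ratio was 0.01, with 6 intervals above 0 and 4 below, against the 18.1% and 17.5% over all genes. Axin2 and Lef1 are the 2 members among these 24. Of 10 genes annotated to positive regulation 9 passed, with a median of -0.02, 1 interval above 0 and 2 below. All 15 genes of the term for the canonical pathway itself, T among them, passed, with a median of 0.03, 4 intervals above 0 and 3 below. The shares of 18.1% and 17.5% over all genes stand beside these counts too. Shares in the range of reads of the GO lists were not computed.

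Other genes of the pathway were described from lists by role. Of 21 other Wnt targets, all in the table, 12 passed the filter, and among these 2 intervals were above 0, 1 was below and the median log2 ratio was 0.05. Of all genes in their range of reads, 16.7% had an interval above 0 and 17% one below. The proliferation genes Myc, 56.25 and 68.55 FPKM (log2 ratio 0.28, interval of the reads 0.22 to 0.35), and Ccnd1, 52.20 and 57.87 FPKM (0.15, interval 0.09 to 0.21), were higher. Both respond to many other signals. Nkd2, the paralog of Nkd1, was lower, with 2.45 and 1.52 FPKM (log2 ratio -0.65, interval of the reads -1.04 to -0.35). Msx2, a homeobox gene, had the highest ratio of the 12 genes past the filter (0.36), with an interval from -0.13 to 0.90 from 58 and 76 reads. The feedback ubiquitin ligase Znrf3 had 4.26 and 4.56 FPKM and the secreted inhibitor Notum 11.80 and 12.02 FPKM, and both intervals included 0. Znrf3, Notum and Ccnd1 were named after their values were seen.

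Genes that TCF7L1 represses in mESCs were described separately, since β-catenin acts on them by relief of repression. All 6 passed the filter, 4 had an interval above 0 and 1 below, and the median log2 ratio was 0.13. These genes were deeply covered, from 3434 to 27232 reads in both libraries together, and of the 3216 genes in that range 31% had an interval above 0 and 21.5% one below 0. Tbx3, a T-box factor of naive mESCs, had the highest ratio, from 16.76 to 26.10 FPKM (0.64, interval of the reads 0.56 to 0.72). Nanog had the highest level and the lowest ratio, 186.41 and 173.37 FPKM (-0.10, interval -0.15 to -0.06).

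The cytoplasmic genes of the pathway, past the filter, had ratios from -0.06 to 0.15. Ctnnb1, which encodes β-catenin, had 246.73 FPKM in PB and 239.55 FPKM in PB-TERRA mESCs (log2 ratio -0.04, interval of the reads -0.07 to -0.01). Gsk3b, 1 of the 2 GSK3 genes whose kinases CHIR99021 inhibits, had 10.02 and 11.16 FPKM (0.15, interval 0.07 to 0.24), the highest ratio of the 16 cytoplasmic genes past the filter. Its paralog Gsk3a had 59.70 and 59.78 FPKM (0.0019, interval -0.07 to 0.07). The lowest in that list was Btrc, an F-box protein, at -0.06 (interval -0.19 to 0.07). The median of the cytoplasmic list was 0.03, with 6 intervals above 0 and 1 below. Of genes with as many reads, 25.7% had an interval above 0 and 21% one below 0. Of 15 nuclear genes 14 passed, with a median of 0.07, 4 intervals above 0 and 2 below, against 17.5% and 17% of the genes in their range of reads. Pygo2, a coactivator of β-catenin, was higher (23.69 and 28.74 FPKM, log2 ratio 0.28, interval of the reads 0.19 to 0.37). Tle4, a corepressor that binds TCF factors, was lower (69.03 and 61.30 FPKM, -0.17, interval -0.22 to -0.12).

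Ligands and receptors went both ways. Of 21 ligand and secretion genes 20 were in the table and the filter kept 8, of which 3 had an interval above 0 and 1 below, and their median log2 ratio was -0.0073. In their range of reads 12.4% of genes had an interval above 0 and 15.7% one below. Without the filter that median was 0.14, so it has no settled sign. Wnt8a had 4.42 FPKM in PB and 2.71 FPKM in PB-TERRA (log2 ratio -0.69, interval of the reads -1.10 to -0.33). Wnt6 went the other way, from 2.31 to 3.43 FPKM (0.55, interval 0.21 to 0.93). Porcn, the acyltransferase that Wnt secretion needs, was the most abundant of the list, 20.78 and 21.42 FPKM (0.04, interval -0.08 to 0.16). Wnt11, under the filter, had 8 and 25 reads, and its log2 ratio of FPKM + 0.1 was 1.10 (interval of the reads 0.44 to 2.99). Among 13 receptor and R-spondin genes past the filter 2 intervals were above 0 and 3 below, against 16.1% and 16.9% of genes in their range of reads. Their ratios ran from Fzd2 (-0.27, interval -0.45 to -0.09) to Fzd4 (0.39, interval -0.01 to 0.92). Fzd4 had 0.79 FPKM in PB and 1.07 FPKM in PB-TERRA, so it passed only through the library where it was higher. The 7 secreted antagonists past the filter had a median of -0.10 (0 with no filter), with 2 intervals above 0 and 2 below, where 11% and 14.2% of genes in their range of reads had such intervals. Their extremes were Kremen2 (1.06 and 0.64 FPKM, log2 ratio -0.65, interval -1.42 to -0.08) and Shisa2 (1.39 and 1.87 FPKM, 0.40, interval 0.05 to 0.81), and Sfrp2 had the highest level (15.18 and 13.43 FPKM, -0.18, interval -0.33 to -0.02). Kremen2, 1 of the 2 lower ones, passed only through PB, where it was higher.

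**Figure D4:**
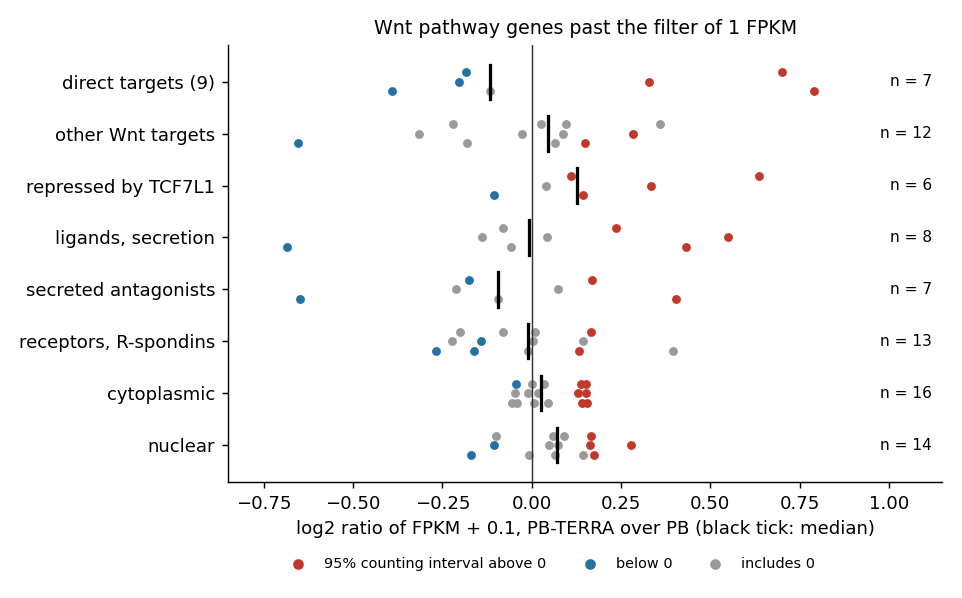
Log2 ratio of FPKM + 0.1, PB-TERRA over PB, for each Wnt pathway gene past the filter, 1 row per list, with a black tick at the median, and red, blue or grey points for a 95% counting interval above 0, below 0 or including 0. The direct targets spread from -0.39 (Sp5) to 0.79 (Cdx2) on this scale, and the cytoplasmic genes from -0.06 to 0.15.

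Cdx2, T and other members are also expressed in cell types that mESC cultures can form, so the markers of these types are given beside them. All 10 trophoblast markers were in the table and 6 passed the filter, and their summed level was 275.91 FPKM in PB and 281.06 FPKM in PB-TERRA, of which Krt8 had 142.49 and 141.42 FPKM. Of these 6, 1 had an interval above 0 and 1 below, against 17.4% each way of genes in their range of reads. Hand1 had 1.36 and 2.65 FPKM (log2 ratio 0.91, interval of the reads 0.49 to 1.43), in the direction of Cdx2, and Eomes had 6.13 and 5.05 FPKM (-0.27, interval -0.46 to -0.10), in the opposite one. Under the filter, Tfap2a was higher too (27 and 54 reads, interval 0.30 to 1.71), and Gata3 had 25 and 41 reads (interval -0.05 to 1.48). The trophoblast factor Elf5 was near 0, with 1 and 3 reads. Krt8 and Krt18 (112.07 and 116.40 FPKM) carry most of the summed level, in which differences of the low factors do not show. Of 12 primitive streak markers 11 were in the table and 3 passed the filter, and the list summed to 15.10 and 13.14 FPKM. Of these 3, 0 had an interval above 0 and 1 below, Eomes, which is on both lists, against 9.73% and 13% of genes in their range of reads. The lowest ratio of the 3 was that of Fgf8 (2.28 and 1.51 FPKM, -0.56, interval -1.23 to 0.02), and Wnt3 had -0.06 (interval -0.29 to 0.17). Msgn1 and Lhx1 were listed at the 0.01 floor in PB, and Foxa2, under the filter, had 8 and 23 reads (log2 ratio of FPKM + 0.1 of 1.08, interval of the reads 0.30 to 2.88). The 7 fibroblast markers summed to 18.78 FPKM in PB and 22.85 FPKM in PB-TERRA, and 3 passed the filter. Of those 3, 2 had an interval above 0 and 0 below, against 13.3% and 16.6% of genes in their range of reads. Col1a1 had 7.99 and 12.14 FPKM (log2 ratio 0.60, interval of the reads 0.50 to 0.71), Col1a2 116 and 174 reads (interval 0.23 to 0.93) and Col3a1, under the filter, 28 and 64 reads (interval 0.52 to 1.88). Col1a2 passed the filter only through PB-TERRA. Of the others, Thy1 had 9.16 and 8.39 FPKM (-0.13, interval -0.34 to 0.09). Dcn, under the filter, had 17 and 16 reads (interval -1.18 to 0.98). Postn was near 0 with 4 and 6 reads, and Lum was near 0 with 3 and 2 reads. The part of such cells in the values of Cdx1, Cdx2, T and the other members was not tested.

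The library kit does not mark strand. In the GENCODE M21 annotation (GRCm38) a gene on the opposite strand overlaps Axin2, Lgr5, Lef1 and Tcf7. Where exons overlap, its reads cannot be told apart from theirs. Overlap was taken between whole genes, and exons were not compared. Nkd1, Lef1 and Tcf7 also overlap a gene on their own strand. Sp5, Cdx1, Cdx2 and T overlap no annotated gene there. The ratio also varied with gene length among genes of at least 5 FPKM in both libraries, from a median of -0.06 in the tenth of shortest genes to 0.05 in the tenth of longest. With the median of genes of like length taken off, all 9 members kept their sign. Those medians, from -0.07 to 0.06, were too small in size to turn the sign of any member.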

How the data were processed

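The authors sequenced 1 library of total RNA from PB mESCs and 1 from PB-TERRA mESCs (TruSeq RNA LT v2 kit, BGISEQ500, per the labels). The submitters' processing notes name HISAT, Cufflinks and the build mm9, and the annotation is not given in the sources used here. The authors deposited 1 table of 18888 genes with FPKM values, rounded to 2 decimals with a floor of 0.01. The header names no unit, so the unit was taken from the values and from Cufflinks. The authors' fold changes, p-values and adjusted p-values in the table were not used. Gene lengths came from the same table.

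Depth was estimated from the steps of low FPKM values in short genes, each a multiple of what 1 read is worth. The best fit took 113 bases off the length, and 80.0% (PB) and 81.4% (PB-TERRA) of these values then lay within 0.15 of a whole read. Reads summed over genes were 24637273 and 24807782, and rounding of FPKM moves the reads of a member by at most 0.570. Members are 9 genes taken by symbol. Ratios were taken on FPKM + 0.1, and genes under 1 FPKM in both libraries were filtered out. Intervals are exact, binomial (Clopper-Pearson) for ratios and Poisson for levels, and cover counting error only. With 1 library per group no test was made. The computations were checked on simulated data. The members and lists were chosen with earlier results of these data known. Besides the members, the genes named are, per list, the highest level, the highest and lowest log2 ratio past the filter and any absolute ratio of at least 1, and always Ctnnb1, Tcf7l1 and Gsk3b. Lgr6, Gsk3a, Tcf7l2, Tfap2a, Gata3, Krt18, Col1a2, Col3a1, Dcn and genes named as near 0 were added with their values seen. Promoter windows came from RefSeq (GRCm38.p6), and overlaps of genes from GENCODE M21. Alternatives were the pseudocount, the scaling, gene length, the filter, the interval level and the length used for reads. Scripts ran in Python 3.11.15 with scipy 1.17.1, pandas 2.3.3, matplotlib 3.10.9 and numpy 2.4.6.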

Additional observations from a re-analysis of the deposited data

How the results depend on the processing

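The log2 ratios of the 9 direct Wnt targets were recomputed as 45 values. These used pseudocounts of 0.01 and 1 FPKM, centring, median-of-ratios scaling, and the length trend taken off. Each value stayed within its counting interval. All kept their sign, which could not have come out otherwise. A pseudocount added to both libraries cannot change a sign. The length trend took off values from -0.07 to 0.06, smaller in size than the ratio nearest 0, -0.12 for T. Centring took off a log2 value of -0.0044 from all genes and median-of-ratios scaling one of -0.0041. The pseudocount moved the low genes most, and Cdx2 ranged from 0.52 to 0.83, Lgr5 from 0.04 to 0.23 and Nkd1 from -0.33 to -0.14. With 99% intervals 3 members stayed above 0 and 2 below, Lef1 no longer being one of them, and with reads from the whole gene length it was 3 and 3. The number of genes with an absolute log2 ratio of at least 1 was 45 with a pseudocount of 1 FPKM, 513 with no filter and 17 with a mean of at least 5 FPKM, against 112. The fibroblast median (0.53 past the filter) was 0.30 with a pseudocount of 1 FPKM and 0.17 with no filter, and the mESC marker median (-0.06) was -0.015 with the length trend taken off. With no filter the ligand median turned from -0.0073 to 0.14, the receptor median from -0.01 to 0.0075 and the antagonist median from -0.10 to 0, and that of the other targets was 0.03 against 0.05, the streak median -0.06 against -0.27 and the trophoblast median 0.10 against 0.06. With the length trend taken off the ligand median was 7.0e-05, the receptor median -0.07 and the antagonist median -0.13. The trophoblast median was then 0.11, and the cytoplasmic median 0.01 against 0.03. No replicate could be left out with 1 library per condition. The counting interval included 0 for Lgr5, Nkd1 and T, and at the 99% level for Lef1 too. For no member does it cover the spread between cultures. No paired analysis was possible because each condition has 1 library.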
